A study of Rattus norvegicus with 12 samples.

Results

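The 10 genes described here encode the nuclear factor kappa B (NF-kB) subunits and the inhibitor of kappa B (IkB) proteins: Rela, Relb, Rel, Nfkb1, Nfkb2, Nfkbia, Nfkbib, Nfkbie, Bcl3 and Nfkbiz. They were chosen by symbol, and all 10 were found once among the 22384 lines with a symbol. All 10 passed the filter on low values, a mean of at least 1 FPKM (fragments mapped to a gene, divided by its transcript length and by the size of the library) over all libraries, together with 11860 genes in all. The cells were rat hepatic progenitor cells (HPCs), immature liver cells that can form hepatocytes and bile duct cells. Their age label was day 13.5 of gestation. RNA-seq covered 12 libraries in 6 groups of 2: wild type, Tnfrsf1α-/- and Tnfrsf1β-/- strain labels, each untreated or exposed to TNFα over 1 hour. No other allele or agent is named for any group. The labels do not describe how the knockouts were made, how many clones or animals they stand for, or whether a group's 2 libraries had separate cultures behind them. P-values below therefore measure library-to-library spread only, and that spread may be technical.

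NF-kB is a family of dimeric transcription factors. RelA (p65), RelB and c-Rel carry transactivation domains. Nfkb1 and Nfkb2 encode the precursors p105 and p100, which are shortened to the DNA-binding partners p50 and p52 and which, uncut, hold dimers in the cytoplasm. The classical inhibitors IkBα (Nfkbia), IkBβ (Nfkbib) and IkBε (Nfkbie) mask dimers until the IkB kinase marks them for destruction, and TNF receptors are a classical trigger of that step. Bcl-3 (Bcl3) and IkBζ (Nfkbiz) act in the nucleus, where they bind p50 or p52 on DNA and alter which genes are read. Several family genes are themselves textbook NF-kB targets, Nfkbia above all, so the system carries its own feedback. In the liver NF-kB is known for protecting epithelial cells from TNF-induced death and for driving inflammatory genes.

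Promoters from RefSeq (rat, GRCr8) of 300 bases each, 250 before and 50 after the annotated gene start, were at hand for 9 of the 10 genes, all but Relb. They were searched on both strands for a common form of the kappa B site, GGG then any 3 bases then TTCC, and for a looser form that contains it, GGG then any 5 bases then CC. The stricter form was present in 6 of 9 (66.7%), against 1796 of 33469 promoters in the table (5.37%). The looser form was present in 9 of 9 member promoters, against 15821 of all promoters (47.3%). The stretch around each stricter match is shown because these 6 promoters hold the letters of the family's own binding site; whether the motif goes with any change in RNA was not tested. Capitals mark the 10 matching bases, each line runs 5′ to 3′ on the gene's own strand, and the match lies on the opposite strand in Nfkbia and Rel.
Nfkb1: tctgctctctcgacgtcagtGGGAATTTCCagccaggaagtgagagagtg
Nfkb2: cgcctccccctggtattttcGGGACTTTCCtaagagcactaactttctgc
Rel: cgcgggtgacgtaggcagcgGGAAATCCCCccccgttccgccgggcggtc
Nfkbia: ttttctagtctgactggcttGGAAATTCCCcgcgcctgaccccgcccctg
Nfkbie: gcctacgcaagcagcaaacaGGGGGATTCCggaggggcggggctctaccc
Nfkbiz: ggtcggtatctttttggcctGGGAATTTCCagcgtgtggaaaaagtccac
These stretches lie at chr2:226805430-226805479 (minus strand, Nfkb1), chr1:255108334-255108383 (plus, Nfkb2), chr14:101921990-101922039 (minus, Rel), chr6:78597074-78597123 (minus, Nfkbia), chr9:22948007-22948056 (minus, Nfkbie) and chr11:58251688-58251737 (plus, Nfkbiz) of GRCr8. The match began 13 bases before the gene start in Nfkbiz, 20 before in Nfkb2, 31 before in Nfkbia, 81 before in Rel and 164 before in Nfkbie, and 3 bases after it in Nfkb1. The windows of Rela, Nfkbib and Bcl3 held the looser letters only. A match of letters is a description of the window, and binding was not measured. No source used here gives the build behind the expression table, so these positions belong to the sequence table alone.

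Several facts of the libraries bear on all values below. Summed FPKM was 447554 to 472935 in the 4 untreated knockout-labelled libraries and 1071530 to 2085916 in the other 8, so those 4 stand apart, and 3 other scalings are given beside the results they change. The 2 libraries labelled Tnfrsf1α-/- with TNFα differed by more than 2 log2 units in 1231 tested genes (8 to 127 in the other pairs). Tnfrsf1a RNA, the gene named in that label, was not lower there than in wild type. On the log2(FPKM + 1) scale it was 5.94 and 6.13 untreated and 5.647 and 5.953 with TNFα. Wild type was at 5.45 and 5.15 untreated and at 5.645 and 5.626 with TNFα. Which exons the deletion removes is not given, so the level goes against the label without deciding it, and these samples are called libraries labelled Tnfrsf1α-/-. The 4 libraries labelled Tnfrsf1β-/- listed Tnfrsf1b at 0, but so did both wild type libraries without TNFα, so it does not set the untreated groups apart. With TNFα, Tnfrsf1b was 2.58 and 2.43 in wild type, and 0 and 4.09 in the libraries labelled Tnfrsf1α-/-. Of the progenitor markers, Epcam and Afp were listed at 0 in every library but the 2 of wild type with TNFα (Epcam 3.32 and 3.06, Afp 5.78 and 5.37), while Krt7 was 7.64 to 7.99 in the 4 untreated knockout-labelled libraries and 13.50 to 15.67 in the other 8. The same wild type + TNFα pair held a summed hepatocyte-marker level of 5192 and 5327 FPKM over 16 genes (12.8 to 26.7 in the other 10 libraries) and a median of 0.20 and 0.49 over 12 mesenchymal genes (4.57 to 7.21 in the others). Tagln and Dcn went the other way there: Tagln was at its highest of the 12 libraries (10.73 and 11.37), and Dcn was 8.16 and 7.72 against 5.70 and 6.76 in untreated wild type. Col1a1 was lower but stayed far above that median, at 7.98 and 7.83 against 9.46 and 8.65. Among leukocyte markers, Adgre1 and Tyrobp were listed at 0 in all 12 libraries and Ptprc in 11, with 0.0041 in the other one. The summed level of the 11 markers in the table was 25.9 to 50.4 FPKM. Most of it was Cd14 and, in wild type with TNFα, the B cell gene Cd79a (5.06 and 5.05, and at most 0.24 elsewhere). In replicate 2 labelled Tnfrsf1α-/- with TNFα, Cd68 (4.09) was above Cd14 (3.67). In bulk RNA, fewer cells of a type and less RNA per cell cannot be told apart.

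The levels of the family are given first, as log2(FPKM + 1), replicate 1 before replicate 2. Among the subunits with a transactivation domain, Rela was the steadiest member. It was 5.13 and 4.50 in untreated wild type, 5.71 and 5.79 in TNFα-treated wild type, 5.14 and 5.27 in untreated libraries labelled Tnfrsf1α-/-, 5.07 and 5.42 with TNFα there, 5.68 and 5.60 in untreated libraries labelled Tnfrsf1β-/-, and 4.88 and 4.71 with TNFα there. Its range over 12 libraries, 1.29, was the smallest of the 10. Relb, the partner of p52 in the non-canonical branch, was lowest in wild type with TNFα. In the same order of groups it was 2.64 and 2.45, 1.38 and 1.30, 3.78 and 4.02, 3.40 and 3.69, 3.64 and 3.75, and 2.49 and 3.06. Rel, best known from lymphoid cells, was the lowest subunit in all 12 libraries. It was 0.84 and 0.28, 0.87 and 0.68, 2.51 and 2.47, 2.48 and 0.73, 2.77 and 2.80, and 0.48 and 0.58, so all 4 untreated knockout-labelled libraries and 1 treated one lay above 2 while the other 7 lay under 1.

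Nfkb1, the p105 and p50 gene, was 3.93 and 2.91 in untreated wild type and 3.66 and 3.56 with TNFα. It was 5.94 and 5.97 in untreated libraries labelled Tnfrsf1α-/- and 5.85 and 5.82 in untreated ones labelled Tnfrsf1β-/-, against 4.84 and 3.96, and 3.38 and 3.13, with TNFα. The 4 untreated knockout-labelled libraries were thus its 4 highest, at 55.3 to 61.8 FPKM, and the next was at 27.6 FPKM. Nfkb2, the p100 and p52 gene, had another order. It was 3.33 and 2.89 in untreated wild type, 5.35 and 5.35 with TNFα, 4.58 and 4.70 then 4.25 and 5.20 under the Tnfrsf1α-/- label, and 4.65 and 4.74 then 3.01 and 3.19 under the Tnfrsf1β-/- label. Its 2 highest libraries were those of wild type with TNFα, and its lowest 4 were untreated wild type and Tnfrsf1β-/- label with TNFα, which overlapped each other.

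Among the classical inhibitors, Nfkbia was the highest member of the family in 11 of the 12 libraries, with Rela just above it in replicate 1 of untreated wild type. Nfkbia was 5.07 and 4.74 in untreated wild type, 5.76 and 5.86 with TNFα, 6.28 and 6.43 then 5.08 and 7.01 under the Tnfrsf1α-/- label, and 7.01 and 7.07 then 4.94 and 5.26 under the Tnfrsf1β-/- label. The 2 libraries labelled Tnfrsf1α-/- with TNFα thus lay further apart than those of any other group. Nfkbib ran the other way from most of the family. It was 4.30 and 4.36 in untreated wild type, 5.31 and 5.51 with TNFα, 2.65 and 3.11 then 3.33 and 4.69 under the Tnfrsf1α-/- label, and 3.29 and 3.03 then 3.88 and 3.97 under the Tnfrsf1β-/- label. Its 4 lowest libraries were the 4 untreated knockout-labelled ones. Nfkbie was 3.0 and 1.99 in untreated wild type, 2.16 and 2.15 with TNFα, 3.93 and 4.04 then 2.84 and 3.23 under the Tnfrsf1α-/- label, and 4.22 and 4.27 then 2.89 and 2.23 under the Tnfrsf1β-/- label. Its 4 highest libraries were again those without TNFα under either knockout label.

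The nuclear inhibitors had the widest spread. Nfkbiz, which co-activates a delayed set of inflammatory genes, ranged over 5.64 log2 units, the largest range of the family. It was 2.91 and 1.55 in untreated wild type, 0.24 and 0.17 with TNFα, 5.41 and 5.81 then 3.96 and 1.95 under the Tnfrsf1α-/- label, and 5.43 and 5.41 then 2.36 and 2.02 under the Tnfrsf1β-/- label. In FPKM it was 0.178 and 0.123 in wild type with TNFα and 41.4 to 55.0 in the 4 untreated knockout-labelled libraries. Bcl3, which can switch p50 and p52 dimers between repression and activation, was 4.02 and 3.71 in untreated wild type, 3.70 and 3.36 with TNFα, 4.41 and 4.75 then 1.88 and 1.28 under the Tnfrsf1α-/- label, and 4.62 and 4.64 then 3.87 and 4.50 under the Tnfrsf1β-/- label. The 2 libraries labelled Tnfrsf1α-/- with TNFα were its lowest, and the other 10 lay between 3.36 and 4.75.

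**Figure D1:**
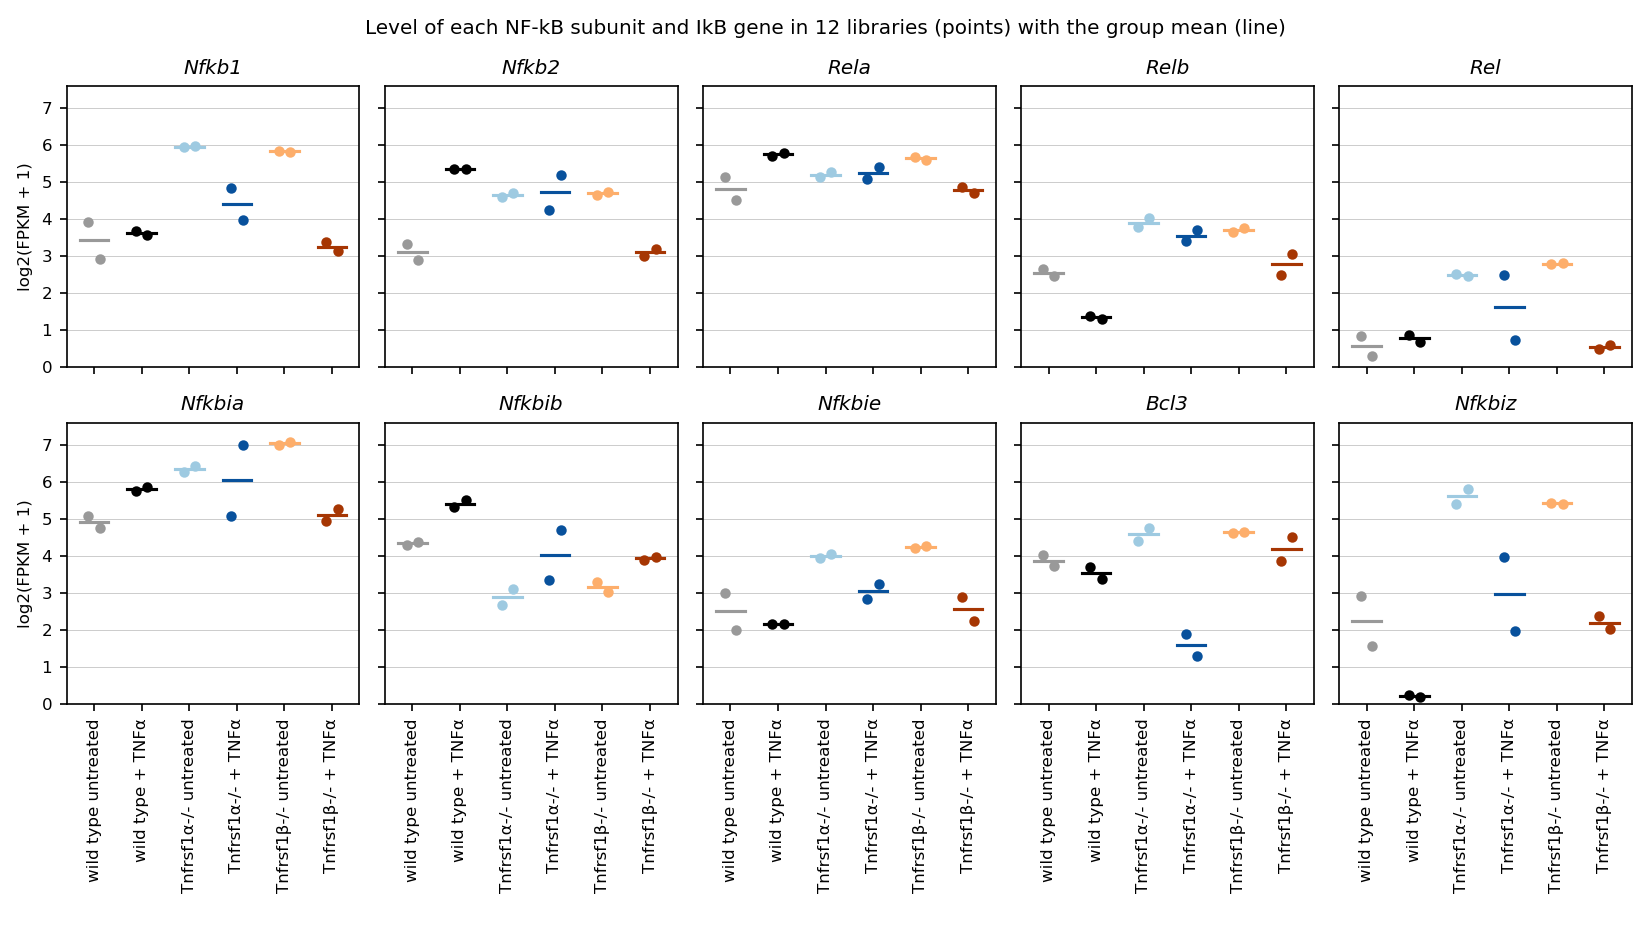
Level of each of the 10 genes as log2(FPKM + 1) on the vertical axis in the 6 groups on the horizontal axis, with each of the 2 libraries as a point and the group mean as a line. Nfkb1, Rel, Nfkbie and Nfkbiz are highest in the untreated groups with a knockout label, Nfkb2 in wild type with TNFα, and Bcl3 is lowest under the Tnfrsf1α-/- label with TNFα.

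FPKM is per transcript length, so levels of different members can be set against each other on the linear scale. Of the summed FPKM of the 5 subunits, Rela made up 53.7% and 55.2% in untreated wild type and 56.9% and 51.6% in the libraries labelled Tnfrsf1β-/- with TNFα. In the 4 untreated knockout-labelled libraries Rela made up 25.3% to 33.8%, and Nfkb1 was the largest subunit with 37.7% to 44.8%. In wild type with TNFα Nfkb2 held 37.9% and 37.2%, near the 34.2% of replicate 2 labelled Tnfrsf1α-/- with TNFα, and Relb held 1.53% and 1.37%, the smallest Relb shares of the 12 libraries. Of the 3 classical inhibitors Nfkbia supplied 53.3% to 83.9% of the FPKM in every library. Nfkbib, in contrast, gave 32.1% and 40.6% in untreated wild type and 4.51% to 7.05% in the 4 untreated knockout-labelled libraries. The ratio of summed classical inhibitor to summed subunit FPKM was 0.712 and 0.753 in untreated libraries labelled Tnfrsf1α-/-, and 0.519 and 1.53 in the 2 treated ones, so that group spanned the whole range of the 12. Shares within a library do not depend on how its total was scaled, but they show unequal change only.

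**Figure D2:**
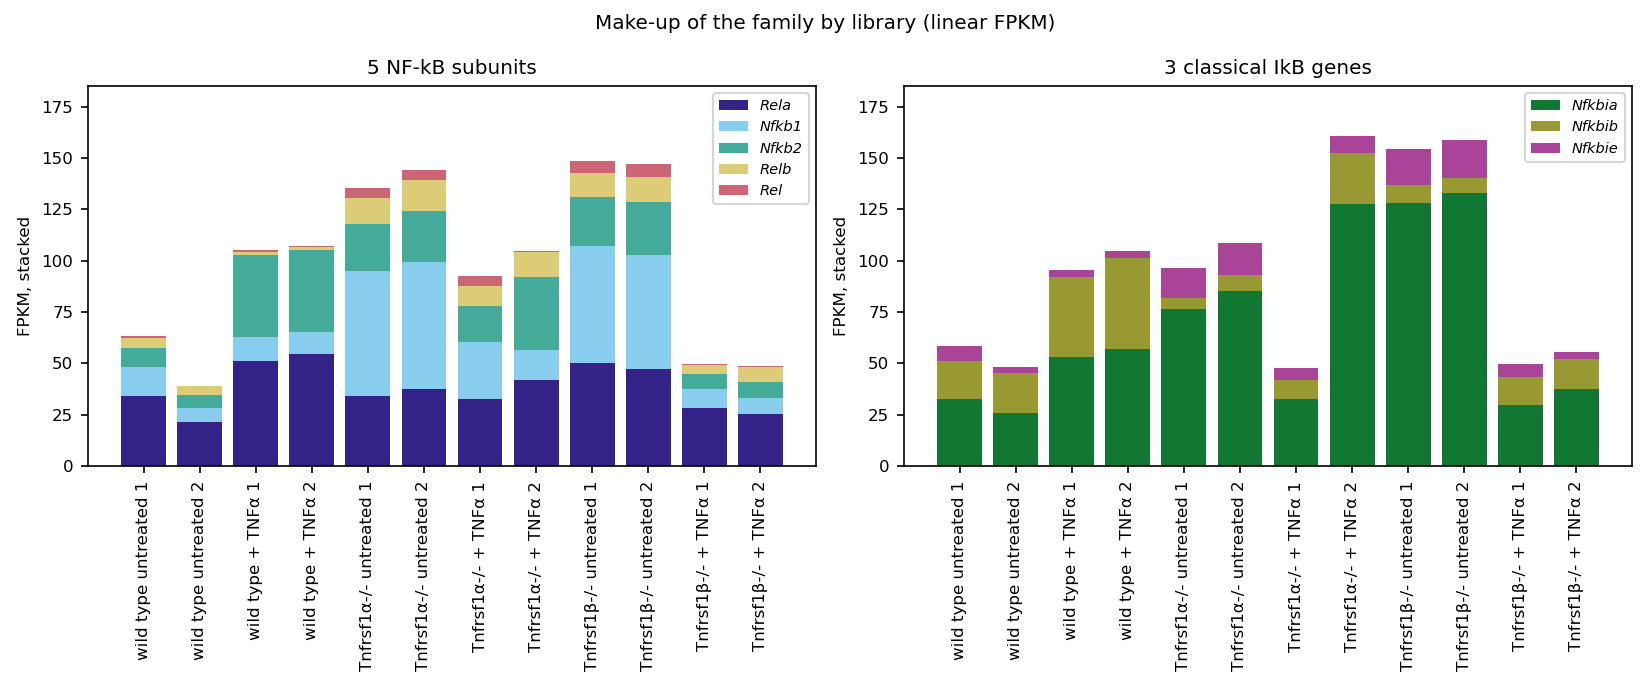
Stacked FPKM, on a linear axis from 0, of the 5 subunit genes (left) and the 3 classical inhibitor genes (right), with 1 bar for each of the 12 libraries. The Nfkb1 segment is the largest in the 4 untreated knockout-labelled bars, the Nfkb2 segment is broad in wild type with TNFα, and the Nfkbib segment is thin in the 4 untreated knockout-labelled bars.

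Without TNFα, most of the family was higher under either knockout label than in wild type, and Nfkbib was lower. Both comparisons use the same 2 untreated wild type libraries. Under the Tnfrsf1α-/- label 7 of 10 genes were higher and 1 lower at a limma adjusted p under 0.05, while 53.7% of all tested genes were called, 36.7% higher and 17% lower. Under the Tnfrsf1β-/- label 8 of 10 were higher and 1 lower, while 54.4% of all tested genes were called, 36.9% higher and 17.5% lower. The median difference over the 10 genes was 1.47 and 1.67, against 0.48 and 0.47 over all tested genes. The libraries of the 2 groups did not overlap for all 10 genes in both comparisons, as they did for 83% and 85.3% of all tested genes.

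Nfkbiz had the largest of these differences, 3.38 ± 0.63 (SE, adjusted p = 0.0025) under the Tnfrsf1α-/- label and 3.19 ± 0.63 (adjusted p = 0.0033) under the Tnfrsf1β-/- label. Nfkb1 was higher by 2.54 ± 0.37 (adjusted p = 0.00088) and 2.42 ± 0.37 (adjusted p = 0.0011). In FPKM that is 14.2 and 6.51 in wild type against 60.6 and 61.8, and 56.8 and 55.3. For Nfkb2 the differences were 1.53 ± 0.31 and 1.58 ± 0.31 (adjusted p = 0.0035 and 0.0030). Nfkbie was higher by 1.49 ± 0.35 and 1.75 ± 0.35 (adjusted p = 0.0077 and 0.0038). Rel was higher by 1.93 ± 0.47 and 2.22 ± 0.47 (adjusted p = 0.0087 and 0.0046) and Relb by 1.35 ± 0.25 and 1.15 ± 0.25 (adjusted p = 0.0024 and 0.0049). The inhibitor Nfkbia was higher by 1.45 ± 0.50 (adjusted p = 0.038) and 2.13 ± 0.50 (adjusted p = 0.0075). Rela was higher by 0.82 ± 0.23 under the Tnfrsf1β-/- label (adjusted p = 0.017), and its 0.39 ± 0.23 under the other label did not pass (adjusted p = 0.19). Bcl3 differed by 0.71 ± 0.30 and 0.76 ± 0.30 and passed in neither (adjusted p = 0.076 and 0.060). Nfkbib alone was lower, with differences of -1.45 ± 0.39 (adjusted p = 0.014) and -1.17 ± 0.39 (adjusted p = 0.033).

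The 4 untreated knockout-labelled libraries are also the 4 with the smallest summed FPKM, so scaling bears on this comparison. The calls of Nfkb1, Nfkb2, Nfkbie and Nfkbiz held in both comparisons, and that of Rel under the Tnfrsf1β-/- label, under all alternatives run for them, which include 3 other scalings and leaving out each library. Under median-ratio scaling 6 genes were higher and 1 lower in both comparisons, and Rela was at -0.17 (adjusted p = 0.51) under the Tnfrsf1α-/- label and at 0.27 (adjusted p = 0.29) under the Tnfrsf1β-/- label. Scaling each library to the same total put the lower call of Nfkbib at -0.28 (adjusted p = 0.50) and 0.075 (adjusted p = 0.88), with 9 of 10 genes higher in both. Quantile normalization gave Relb 0.67 (adjusted p = 0.079) and 0.41 (adjusted p = 0.26). Of all genes called, 68.3% and 67.8% were higher as deposited, 51.0% and 51.4% with median-ratio scaling, 54.4% and 54.3% with quantile normalization and 91.4% and 91.9% with total scaling. Without replicate 2 of untreated wild type, 5 and 6 of the 10 genes were called; the calls lost there were Rel (1.65, adjusted p = 0.066), Nfkbia and Nfkbib under the Tnfrsf1α-/- label and Rela, Nfkbia and Nfkbib under the Tnfrsf1β-/- label. The call of Nfkbia under the Tnfrsf1α-/- label ended in 12 of 21 alternatives, with adjusted p up to 0.21, and those of Nfkbib in 3 and 7. Median-ratio scaling also put Relb at 0.65 under the Tnfrsf1β-/- label (adjusted p = 0.091). None of the 3 leukocyte markers that could be tested passed in either comparison, and Cd14, the highest of them, was 5.08 and 5.0 in wild type against 4.69 to 5.26. Other cell type markers moved with the group. Of 11 tested progenitor and bile duct markers, Krt7 (values above), Sox9 (0.024 to 0.31 in these 4 libraries and 5.21 to 9.67 in the other 8) and Cdh1 (at most 0.053 against 2.96 to 10.71) were lower in both comparisons and none was higher. The summed level of all 14 markers of that list was 373 to 500.1 FPKM in these 4 libraries and 12020 to 55910 in the other 8, where most of it was Krt7. The median of the list was 0 in both untreated wild type libraries and 0 to 0.017 in these 4, so the sum does not describe the whole list. The endothelial receptor gene Tek went the other way, at 2.26 to 2.39 against at most 0.52, while Kdr and Emcn were listed at 0 in all 12. The part of these markers in the result was not tested.

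TNFα given to wild type cells went with more Nfkb2 and Rela RNA and less Relb and Nfkbiz RNA. These were 4 calls among 10 genes, 2 higher and 2 lower, where 47.2% of all tested genes were called, 31.9% higher and 15.3% lower. The median difference over the 10 genes was 0.20, against 0.32 over all genes, so the family as a whole lay near the background. Nfkb2 was higher by 2.24 ± 0.31 (adjusted p = 0.00046), from 9.08 and 6.40 FPKM to 39.8 and 39.9, and Rela by 0.94 ± 0.23 (adjusted p = 0.011). Relb fell by 1.20 ± 0.25 (adjusted p = 0.0042) and Nfkbiz fell by 2.03 ± 0.63 (adjusted p = 0.027). Nfkbib at 1.08 ± 0.39 (adjusted p = 0.051) and Nfkbia at 0.90 ± 0.50 (adjusted p = 0.17) did not pass. The differences of Nfkb1 (0.19 ± 0.37), Rel (0.21 ± 0.47), Nfkbie (-0.34 ± 0.35) and Bcl3 (-0.34 ± 0.30) did not pass either, with adjusted p from 0.39 to 0.73. Libraries of the 2 groups did not overlap for 7 of the 10 genes, against 79.9% of all tested genes.

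The calls of Nfkb2 and Relb in wild type held in all 21 alternatives, with Nfkb2 at 1.43 to 2.46 and Relb at -1.59 to -1.11. That of Rela ended under median-ratio scaling (0.47, adjusted p = 0.092), quantile normalization (0.33, adjusted p = 0.17) and total scaling (0.14, adjusted p = 0.72), and without replicate 2 of either wild type group (0.62 and 0.89, adjusted p = 0.057 and 0.062). The 3 scalings move the median of all genes from 0.32 to -0.04, -0.12 and -0.28. The Nfkbiz call ended without either wild type + TNFα library (adjusted p = 0.11 and 0.12) and without replicate 1 of untreated wild type (-1.35, adjusted p = 0.15). Of all genes called, 67.6% were higher as deposited and 49.3%, 43.2% and 35.4% under those 3 scalings. Markers moved in the 2 wild type + TNFα libraries, with Alb at 10.01 and 9.92 against 0 in untreated wild type. Of 16 hepatocyte genes, 14 were under 1 FPKM in each untreated wild type library, and 3 in each with TNFα. All 13 tested were higher. Most of them passed the filter on mean FPKM only through this pair, so that count was largely fixed beforehand. Of the mesenchymal genes Vim was 1.22 and 1.34 against 10.57 and 10.73, while Tagln, at 7.85 and 7.70 in untreated wild type, and Dcn went up as given above. Their part in the differences of Nfkb2, Rela, Relb and Nfkbiz was not tested.

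Under the Tnfrsf1β-/- label the direction was the other one: 8 of 10 genes were lower with TNFα and none was higher. In this comparison 60.5% of all tested genes were called, 17.6% higher and 42.9% lower, and the median difference was -1.64 for the family and -0.66 for all genes. The libraries of the 2 groups did not overlap for all 10 genes, as for 87.5% of all tested genes. Nfkbiz fell by 3.23 ± 0.63 (adjusted p = 0.0026), Nfkb1 by 2.58 ± 0.37 (adjusted p = 0.00069) and Rel by 2.25 ± 0.47 (adjusted p = 0.0037). Nfkbia fell by 1.94 ± 0.50 (adjusted p = 0.00995), from 128.0 and 133.0 FPKM to 29.7 and 37.3. Nfkbie fell by 1.69 ± 0.35 (adjusted p = 0.0037) and Nfkb2 by 1.59 ± 0.31 (adjusted p = 0.0025). Smaller falls were those of Relb, 0.93 ± 0.25 (adjusted p = 0.011), and Rela, 0.84 ± 0.23 (adjusted p = 0.013). Bcl3 at -0.45 ± 0.30 (adjusted p = 0.23) and Nfkbib at 0.77 ± 0.39 (adjusted p = 0.12) did not pass. This comparison starts from the untreated libraries described above, so its baseline is the raised one, and the treated levels lay near those of untreated wild type: Nfkb1 at 3.38 and 3.13 against 3.93 and 2.91, and Nfkb2 at 3.01 and 3.19 against 3.33 and 2.89.

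The lower calls of Nfkb1, Rel, Nfkbie and Nfkbiz held in all alternatives run. Median-ratio scaling left 5 calls, 4 lower and 1 higher: Nfkbib was then higher at 1.51 (adjusted p = 0.019), Rela was at -0.06 (adjusted p = 0.84), Relb at -0.21 (adjusted p = 0.58), Nfkbia at -1.15 (adjusted p = 0.11) and Nfkb2 at -0.85 (adjusted p = 0.054). Quantile normalization also ended the Relb call (-0.09, adjusted p = 0.84) and called Nfkbib higher, at 1.55 (adjusted p = 0.017). Total scaling called 9 of 10 lower, with Nfkbib at -0.45 (adjusted p = 0.28). Leaving out 1 of the 4 libraries of this comparison ended the call of Rela in 3 cases (adjusted p = 0.056 to 0.074), of Relb in 2 (adjusted p = 0.065 and 0.071) and of Nfkbia in 1 (adjusted p = 0.051). Of all genes called, 29.1% were higher as deposited and 50.9%, 44.8% and 9.46% under the 3 scalings.

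Under the Tnfrsf1α-/- label 3 genes were lower with TNFα and none was higher, with 17.3% of all tested genes called, 9.81% higher and 7.5% lower. Bcl3 fell by 2.99 ± 0.30 (adjusted p = 0.00015), from 20.2 and 25.8 FPKM to 2.69 and 1.43. Nfkbiz fell by 2.65 ± 0.63 and Nfkb1 by 1.56 ± 0.37 (both adjusted p = 0.023). Nfkbib at 1.13 ± 0.39 (adjusted p = 0.078) and Nfkbie at -0.95 ± 0.35 (adjusted p = 0.093) did not pass. Rel (-0.89 ± 0.47), Relb (-0.35 ± 0.25), Nfkbia (-0.31 ± 0.50), Nfkb2 (0.08 ± 0.31) and Rela (0.04 ± 0.23) did not pass either. The median was -0.62 for the family and -0.02 for all genes. The libraries did not overlap for 6 of the 10 genes, against 62.2% of all tested genes.

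The call of Bcl3 held in all 20 alternatives. Those of Nfkb1 and Nfkbiz each ended in 6 of 20 alternatives: with only these 2 groups in the fit (adjusted p = 0.21 and 0.27), without replicate 2 of the treated pair (adjusted p = 0.075 and 0.053), without either untreated library (adjusted p = 0.10 to 0.13) and without either library of wild type with TNFα (adjusted p = 0.052 and 0.056). Its 2 treated libraries differ most of all pairs, and each gives another picture: without replicate 1 of them 6 genes were called and Nfkbia was 0.65 higher (adjusted p = 0.027), while without replicate 2 Nfkbia was at -1.28 (adjusted p = 0.0040). Over all genes, the number called went from 2052 to 7001 without replicate 1. Cd68, a macrophage marker, was 4.09 in replicate 2 and 0.66 in replicate 1, and Tnfrsf1b was 4.09 and 0, while Cd14 went the other way (3.67 in replicate 2 and 5.65 in replicate 1) and Adgre1 and Tyrobp were listed at 0 in both. Other markers split the pair as well: replicate 2 and replicate 1 held Acta2 at 0.26 and 8.55, Krt8 at 0.62 and 6.26 and Spp1 at 6.12 and 0. Their part in the result was not tested. Total scaling called 9 of 10 genes lower, where the median of all genes moved from -0.02 to -1.39. Of all genes called, 56.7% were higher as deposited and 50.5%, 34.3% and 6.0% under median-ratio, quantile and total scaling.

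**Figure D3:**
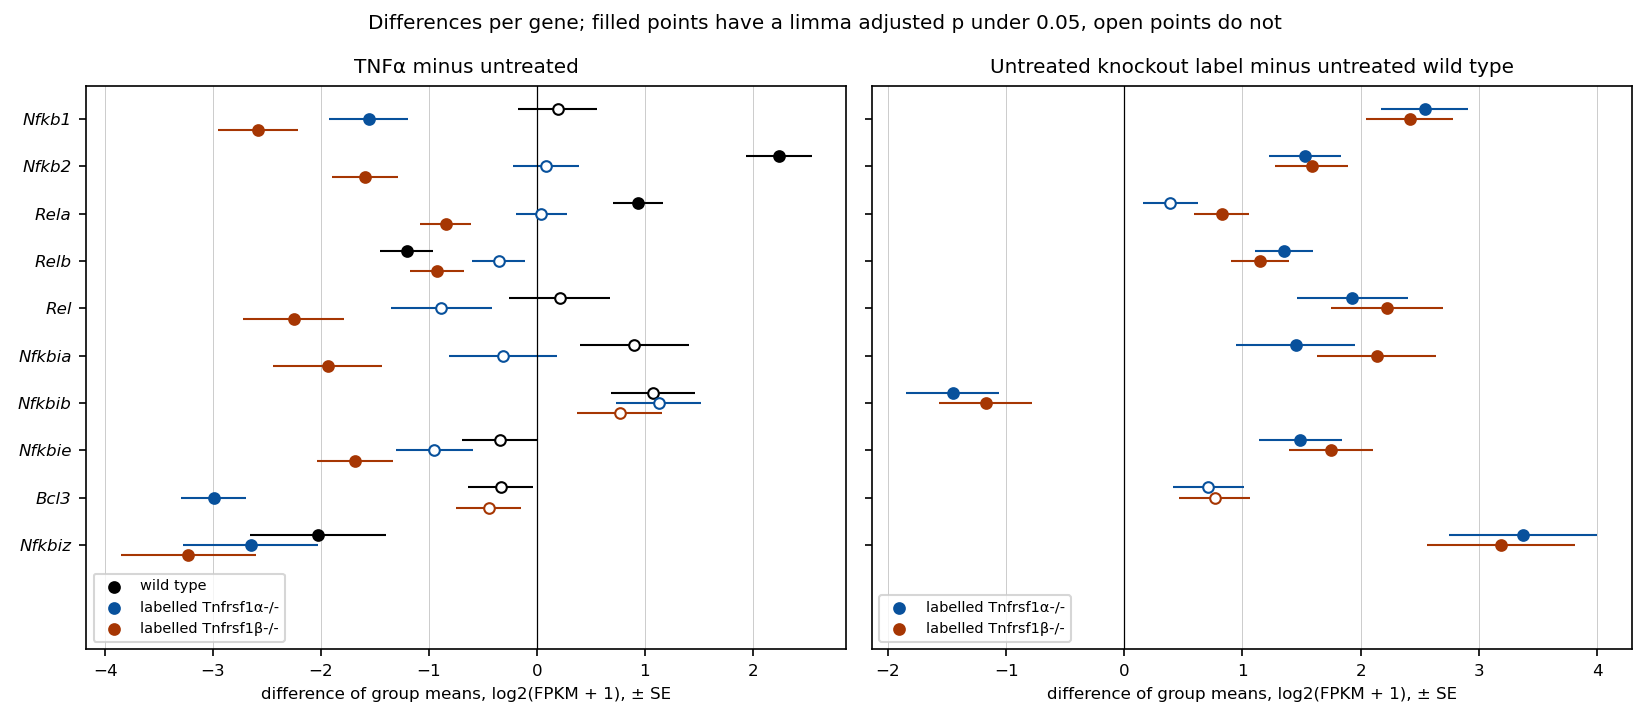
Difference of group means in log2(FPKM + 1) with its SE, per gene, for TNFα against untreated in the 3 genotypes (left) and for untreated knockout label against untreated wild type (right). Filled points passed a limma adjusted p under 0.05: 4, 3 and 8 of 10 genes on the left, and 8 and 9 of 10 on the right, where Nfkbib is the one gene to the left of 0.

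Whether the response to TNFα differed between genotypes was tested as the difference of the responses. Both tests share the wild type libraries, and the untreated libraries enter them as well as the comparisons above. Under the Tnfrsf1β-/- label 6 of 10 genes had a lower response than in wild type and none a higher one, where 64.5% of all tested genes differed, 47.3% with a lower response. Nfkb2 had the largest difference, -3.83 ± 0.43 (adjusted p = 0.00013), from a response of 2.24 in wild type to -1.59. The differences were -2.84 ± 0.71 for Nfkbia (adjusted p = 0.0078), -2.77 ± 0.52 for Nfkb1 (adjusted p = 0.0019) and -2.46 ± 0.67 for Rel (adjusted p = 0.011). They were -1.78 ± 0.33 for Rela (adjusted p = 0.0018) and -1.34 ± 0.50 for Nfkbie (adjusted p = 0.042). The 4 others did not pass: Nfkbiz -1.20 ± 0.89, Nfkbib -0.31 ± 0.56, Bcl3 -0.11 ± 0.43 and Relb 0.28 ± 0.35. The differences of Nfkb1, Nfkb2 and Rel held in all alternatives run, while those of Rela, Nfkbia and Nfkbie ended under median-ratio scaling (-0.53, -1.59 and -0.26, adjusted p = 0.15, 0.11 and 0.60). That of Nfkbie ended in 12 of 21 alternatives in all, 8 of them fits without 1 library.

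Under the Tnfrsf1α-/- label 3 of 10 genes had a lower response than in wild type and none a higher one, where 34.8% of all tested genes differed, 22% with a lower response. These were Bcl3, -2.66 ± 0.43 (adjusted p = 0.0019), Nfkb2, -2.16 ± 0.43 (adjusted p = 0.0060), and Nfkb1, -1.75 ± 0.52 (adjusted p = 0.031). Nfkb2 thus had a lower response than in wild type under both labels, with 0.08 here and a fall, -1.59, under the Tnfrsf1β-/- label. Rela at -0.90 ± 0.33 (adjusted p = 0.066) and Relb at 0.85 ± 0.35 (adjusted p = 0.088) did not pass, nor did Nfkbia (-1.22 ± 0.71), Rel (-1.10 ± 0.67), Nfkbiz (-0.62 ± 0.89), Nfkbie (-0.61 ± 0.50) and Nfkbib (0.05 ± 0.56). The differences of Nfkb2 and Bcl3 held in all 20 alternatives, and that of Nfkb1 ended in 8 of 20, with adjusted p up to 0.10. These were the fit with only these groups, and the fits without replicate 2 of untreated wild type, without 1 library of wild type with TNFα, or without 1 untreated library of either knockout label.

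With TNFα present in both, the knockout labels differed from wild type in Relb and Nfkbiz, the genes that had fallen there. Relb was higher under the Tnfrsf1α-/- label by 2.20 ± 0.25 (adjusted p = 0.00016) and under the Tnfrsf1β-/- label by 1.43 ± 0.25 (adjusted p = 0.0016). Nfkbiz was higher by 2.75 ± 0.63 (adjusted p = 0.0076) and 1.99 ± 0.63 (adjusted p = 0.028). Nfkbib was lower in both, with differences of -1.40 ± 0.39 (adjusted p = 0.019) and -1.48 ± 0.39 (adjusted p = 0.013). Bcl3 was lower under the Tnfrsf1α-/- label (-1.95 ± 0.30, adjusted p = 0.0011), and Nfkb2 and Rela were lower under the Tnfrsf1β-/- label, at -2.25 ± 0.31 (adjusted p = 0.00040) and -0.96 ± 0.23 (adjusted p = 0.0092). Calls numbered 4 of 10 (2 higher, 2 lower) where 45.2% of all genes were called (22.7% higher, 22.4% lower), and 5 of 10 (2 higher, 3 lower) where 51% were called (14.7% higher, 36.3% lower). The libraries did not overlap for 8 and 10 of the 10 genes, against 70.5% and 84.5% of all tested genes. The calls of Relb in both, of Bcl3 and of Nfkb2 held in all alternatives run. Rela at -0.26 and Nfkbib at -0.80 no longer passed under the Tnfrsf1β-/- label with median-ratio scaling (adjusted p = 0.32 and 0.17), and the Nfkbiz call there ended without any 1 of its 4 libraries (adjusted p = 0.079 to 0.12). The Nfkbib calls ended in 4 of 20 and 7 of 21 alternatives. These comparisons share the wild type + TNFα pair, whose hepatocyte and mesenchymal markers stand apart from the other 10 libraries, and without replicate 2 of that pair 2 genes were called in each. Without replicate 2 of the libraries labelled Tnfrsf1α-/- with TNFα, 9 of 10 genes were called in the first.

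**Figure D4:**
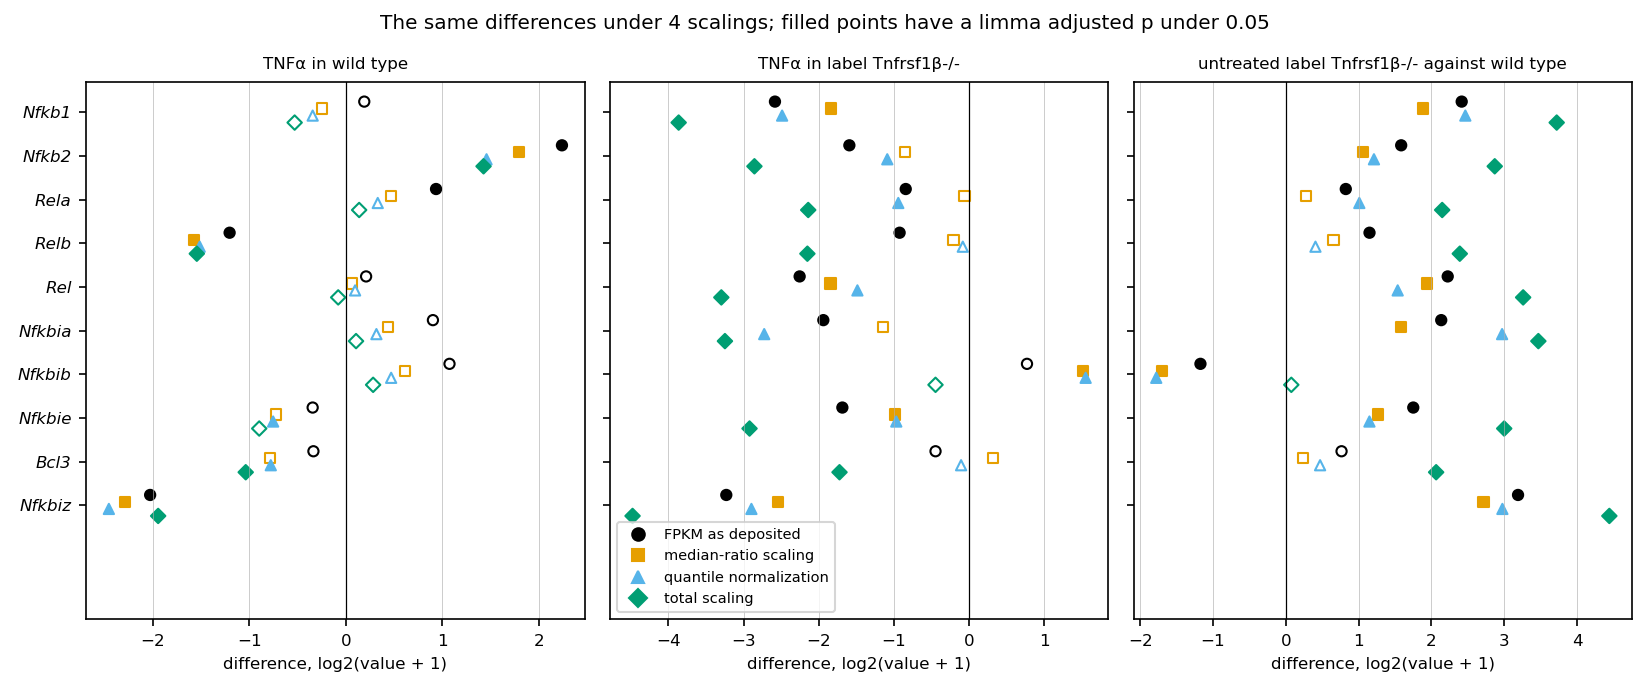
Differences per gene for TNFα in wild type, TNFα under the Tnfrsf1β-/- label and untreated Tnfrsf1β-/- label against wild type, on a log2(value + 1) axis, with FPKM as deposited and under 3 other scalings, where filled points passed a limma adjusted p under 0.05. Nfkb2 and Relb keep their calls in wild type under all 4, and Nfkbib crosses 0 with total scaling in the other 2 panels.

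The steps that feed the family were taken from 3 gene lists, whose counts are to be read against the shares of all tested genes called in the same comparison. Of 26 activating kinases, adaptors and ubiquitin enzymes, all tested, 17 were higher and 3 lower in untreated libraries labelled Tnfrsf1α-/- than in wild type, with a median of 1.18 against 0.48 for all genes, of which 36.7% were higher and 17% lower. In those labelled Tnfrsf1β-/- 16 were higher and 3 lower, with a median of 1.22 against 0.47 and with 36.9% and 17.5% of all genes. Ikbke, an IkB kinase relative, was 1.92 ± 0.19 and 2.12 ± 0.19 higher (adjusted p = 0.00019 and 0.00011). Map3k7, which encodes the kinase TAK1 upstream of the IkB kinase, was 3.68 ± 0.53 and 3.69 ± 0.53 higher (adjusted p = 0.00083 and 0.00084), from a listed 0 in both wild type libraries. Rbx1, the RING subunit of the ubiquitin ligase that marks IkB, was -2.46 ± 0.41 and -2.67 ± 0.41 (adjusted p = 0.0015 and 0.0011). With median-ratio scaling the counts became 13 higher and 7 lower, and 12 higher and 7 lower.

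With TNFα in wild type, 8 of these 26 were higher and 3 lower, which is near the 31.9% and 15.3% of all genes, and the median was 0.13 against 0.32. With median-ratio and total scaling the counts were 4 and 5, and 1 and 7. Ikbke rose by 1.54 ± 0.19 (adjusted p = 0.00025), and the ubiquitin ligase receptor of IkB, Btrc, rose by 1.11 ± 0.22 (adjusted p = 0.0038). Under the Tnfrsf1β-/- label 5 were higher and 17 lower (median -1.48 against -0.66), with 17.6% and 42.9% of all genes, where Ikbke fell by 2.21 ± 0.19 (adjusted p = 8.2e-05) and Ripk1, the scaffold kinase of the TNF receptor complex, by 2.28 ± 0.29 (adjusted p = 0.00046). Under the Tnfrsf1α-/- label 1 passed where 17.3% of all genes did, Ikbke, which fell by 1.53 ± 0.19 (adjusted p = 0.00067), and total scaling called 22 lower. Ikbke thus rose with Nfkb2 in wild type and fell with it under the Tnfrsf1β-/- label. The 2 genes parted under the Tnfrsf1α-/- label, where Ikbke fell and Nfkb2, at 0.08 ± 0.31, did not pass.

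Of 15 other nuclear regulators 12 were tested. In wild type with TNFα 3 were higher and none lower, no more than the 31.9% of all genes, among them the acetyltransferase Ep300 at 1.55 ± 0.45 (adjusted p = 0.021). Median-ratio scaling gave 2 and 1 there and total scaling 0 and 2. With TNFα under the Tnfrsf1β-/- label 2 were higher and 6 lower, where 17.6% of all genes were higher and 42.9% lower. Median-ratio scaling gave 4 and 4 there, with the median going from -0.58 to 0.18. Under the Tnfrsf1α-/- label none passed where 17.3% of all genes did, and total scaling called 11 of 12 lower. In the untreated comparisons 5 were higher and 1 lower under both labels, where 36.7% and 36.9% of all genes were higher and 17% and 17.5% lower. As deposited, Ep300 was at 2.34 ± 0.45 and 3.08 ± 0.45 (adjusted p = 0.0030 and 0.00094). The SUMO ligase Pias1 was at 1.52 ± 0.23 and 1.75 ± 0.23 (adjusted p = 0.0011 and 0.00065). Total scaling gave 9 higher and 1 lower in each. Nfkbid, a further nuclear IkB gene, was at 0 to 0.56 in the 12 libraries and was not tested.

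Of 32 textbook NF-kB target genes 27 were tested. In the untreated comparisons 17 were higher and 1 lower under the Tnfrsf1α-/- label, with a median of 1.38 against 0.48 for all genes, and 20 higher and 1 lower under the Tnfrsf1β-/- label, with 1.59 against 0.47. Of all genes 36.7% and 36.9% were higher there, and 17% and 17.5% lower. Tnfaip3, which encodes the feedback inhibitor A20, was 3.14 ± 0.42 and 3.53 ± 0.42 higher (adjusted p = 0.00067 and 0.00043). Ptgs2, the inducible cyclooxygenase, was 3.20 ± 0.38 and 3.38 ± 0.38 higher (adjusted p = 0.00041 and 0.00034). The one lower gene was Cflar, the caspase-8 inhibitor, at -3.93 ± 0.18 and -4.16 ± 0.18 (adjusted p = 1.3e-06 and 9.1e-07). Median-ratio scaling left 12 and 11 higher and 1 lower in each.

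With TNFα, 4 of the 27 targets were higher and 10 lower in wild type (median -0.58 against 0.32), 2 higher and 5 lower under the Tnfrsf1α-/- label (-0.66 against -0.02) and 2 higher and 21 lower under the Tnfrsf1β-/- label (-1.77 against -0.66). Of all genes 31.9%, 9.81% and 17.6% were higher and 15.3%, 7.5% and 42.9% lower in these comparisons. Median-ratio, quantile and total scaling gave 4 and 13, 3 and 15, and 2 and 12 in wild type, 2 and 6, 2 and 14, and 2 and 23 under the Tnfrsf1α-/- label, and 3 and 13, 2 and 18, and 1 and 22 under the Tnfrsf1β-/- label. Cflar rose in all 3, by 2.12 ± 0.18, 6.59 ± 0.18 and 4.84 ± 0.18 (adjusted p = 2.2e-05, 2.5e-08 and 3.8e-07). The chemokine gene Ccl20 rose by 5.51 ± 0.77 in wild type (adjusted p = 0.00052) and by 4.01 ± 0.77 under the Tnfrsf1α-/- label (adjusted p = 0.0091), and fell by 3.74 ± 0.77 under the Tnfrsf1β-/- label (adjusted p = 0.0034). Its 2 untreated wild type libraries were at 0 and 3.08. The neutrophil chemokine gene Cxcl1 fell by 7.20 ± 0.21 in wild type (adjusted p = 1.3e-08), from 8.35 and 8.18 to 0.98 and 1.15, by 1.67 ± 0.21 under the Tnfrsf1α-/- label (adjusted p = 0.00069) and by 1.29 ± 0.21 under the Tnfrsf1β-/- label (adjusted p = 0.0012). Tnfaip3 fell by 1.28 ± 0.42 in wild type (adjusted p = 0.036) and by 3.58 ± 0.42 under the Tnfrsf1β-/- label (adjusted p = 0.00035). It was lower with TNFα under the Tnfrsf1α-/- label too, at 3.76 and 3.33 against 4.84 and 4.88 untreated. With TNFα in both, 14 targets were higher and none lower under the Tnfrsf1α-/- label than in wild type (median 0.94 against 0.08 for all genes), and 10 were higher and 5 lower under the Tnfrsf1β-/- label (0.39 against -0.41). Of all genes 22.7% and 14.7% were higher there, and 22.4% and 36.3% lower.

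Patterns over the 12 libraries were compared by the root mean square difference between 2 genes' log2 values after each gene's own mean was subtracted. A small number means profiles that lie close in log2 units. The measure is not scaled to a gene's own spread over the libraries, a standard deviation of 1.97 for Nfkbiz and 0.40 for Rela. Distances of different members are therefore not on equal terms. Within the family the closest pair was Nfkb1 and Rel, at 0.33, followed by Nfkb1 and Nfkbie at 0.50 and Nfkbie and Relb at 0.54. Rel had the closest gene of all tested genes to any member, Atxn7 at 0.113, then Chd9 at 0.125. Nfkb2 was most like Ift172 (0.118) and Bcl2l11 (0.157), and Rela most like Zfp446 (0.122) and Dffb (0.128). For Nfkb1 the nearest were Ice1 (0.135) and Eif4g3 (0.143). Nfkbib was nearest to the mitochondrial genes Mrps7 (0.183) and Atp5b (0.207), Nfkbie to Pim1 (0.209) and Dennd2a (0.221), and Relb to Whrn (0.212) and Tceal1 (0.216). Nfkbia, at 0.264 from Cirbp and 0.287 from Pnrc1, and Nfkbiz, at 0.357 from Slc44a1 and 0.377 from Cd2ap, had no gene as near in these unscaled units. Bcl3 stood most alone, its nearest genes being Lurap1l at 0.498 and Arl4d at 0.552. The 12 points share their 6 groups and their library totals, so these distances describe the libraries and carry no test.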

How the data were processed

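RNA-seq libraries were made from 1 ug of total RNA of rat hepatic progenitor cells with an Illumina TruSeq kit, per the labels' protocols. The authors deposited 1 table of FPKM values on a log2 scale, with 22730 lines. No source used here names the aligner, counter, build, strand use or filters. The scale, log2(FPKM + 1), was inferred from the deposited values. In the untreated Tnfrsf1α-/- pair, 72 low genes sat at a multiple of 1.5, 2 or 3 of the commonest ratio between its libraries when the values were read in base 2, against 26 in base e and 15 in base 10. Such steps give relative depth within a pair (0.635 to 1.19 for replicate 2 over 1, leaving out the treated Tnfrsf1α-/- pair, which rests on 7 genes) but not absolute depth, so no counting interval is given.

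Lines without a symbol (346) were left out. For the 11860 genes with a mean of at least 1 FPKM, limma (version 3.58.1, R version 4.3.3) was run on log2(FPKM + 1), which understates the change of low genes. All 12 libraries shared a fit of 6 group means without a block or added scaling, and variances were moderated by empirical Bayes with a trend on mean level. P-values are two-sided, moderated and adjusted by Benjamini-Hochberg within each of 9 contrasts over all tested genes, with a threshold of 0.05. Differences are given ± SE. The fit was tested on simulated data. Alternatives were a pseudocount of 0.1, no filter, a mean of at least 5 FPKM, median-ratio and quantile scaling, only the groups compared, the replicate number as a block, each library left out, and both treated Tnfrsf1α-/- libraries left out. Scaling to equal summed FPKM was added after the data were seen.

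The 10 members, the 3 pathway lists, the marker lists, the motifs and the tests were chosen with earlier results of these data known. Genes named are the members, the 2 receptor genes, the 2 nearest genes in pattern to each member, up to 3 called genes of each pathway list with the smallest p in each direction per contrast, and members of the marker lists; Nfkbid, Krt7, Krt8, Sox9, Cdh1, Spp1, Cd14, Cd68, Cd79a, Tek, Alb, Vim, Tagln, Dcn, Col1a1 and Acta2 were singled out after their values were seen. Some named genes are followed through other contrasts. All 10 members matched RefSeq gene names in GRCr8, and 9 had a promoter entry.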

Additional observations from a re-analysis of the deposited data

Results flagged for a closer look

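The response to TNFα differed between a knockout label and wild type for 9 gene and label pairs, each listed because the test of the difference itself passed (limma, adjusted p under 0.05). Under the Tnfrsf1β-/- label the response of Nfkb2 was lower by -3.83 on the log2 scale, that of Nfkbia by -2.84, Nfkb1 by -2.77, Rel by -2.46, Rela by -1.78 and Nfkbie by -1.34. Under the Tnfrsf1α-/- label that of Bcl3 was lower by -2.66, Nfkb2 by -2.16 and Nfkb1 by -1.75. For Nfkb2 under the Tnfrsf1β-/- label, both treated libraries lay below both untreated ones, and in wild type both lay above. Each of these tests uses the untreated libraries of the label, which have the smallest summed FPKM of the series, and the wild type + TNFα pair, in which the hepatocyte markers are high.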

How the results depend on the processing

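Over 10 genes and 9 contrasts, 1617 of the values under an alternative kept their direction and their side of the threshold. Another 106 lost the call and 81 gained one in the same direction, and 47 changed sign. Values that changed sign were counted only as such, also where they passed in the new direction. The cause was not tested. For many of these values the direction was fixed beforehand. Changing the filter, fitting only the groups compared, adding the block or leaving out a library of another group leaves the difference itself as it was. Such fits can move the adjusted p only, and they are among the alternatives in which calls are said to have held. Members called moved from 8 to 5 for TNFα under the Tnfrsf1β-/- label with median-ratio scaling, and with only the groups compared from 3 to 1 for TNFα under the Tnfrsf1α-/- label and from 4 to 2 for its treated comparison with wild type. Total scaling gave 9 for TNFα under the Tnfrsf1α-/- label and 7 for its difference in response from wild type (3 as deposited in each). Leaving out 1 library at a time gave 2 to 6 for TNFα in wild type, 1 to 6 under the Tnfrsf1α-/- label, 6 to 9 under the Tnfrsf1β-/- label, 2 to 6 and 5 to 6 for the differences in response, 5 to 9 and 6 to 10 for the untreated labels, and 2 to 9 and 2 to 7 for the treated ones. Where that left a group with 1 library, the lone library is assumed to vary like the others.

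Among all tested genes, calls moved by over 1.5 times mainly for TNFα under the Tnfrsf1α-/- label: 2052 as deposited, 3750 with quantile normalization, 570 with only its groups, 9431 with total scaling, 7001 without replicate 1 of its treated pair, 750 and 851 without an untreated library, and 1310 without either untreated library labelled Tnfrsf1β-/-. Its difference in response went from 4127 to 6495 with total scaling, 2751 in a fit of its 4 groups alone, 7125 without treated replicate 1, and 2392 to 2676 without a wild type + TNFα or an untreated Tnfrsf1α-/- library. Treated against wild type, 5356 became 2111 in a fit of these 2 groups alone, and 3504 and 3081 without a wild type + TNFα library. TNFα in wild type went from 5601 to 3520 and 3618 without a treated library. The treated Tnfrsf1β-/- comparison went from 6046 to 3937 without replicate 1 of wild type + TNFα. The untreated ones went from 6370 to 4179 without Tnfrsf1α-/- replicate 1, and from 6456 to 4292 without wild type replicate 2 and 4198 without Tnfrsf1β-/- replicate 2. Of calls in the treated Tnfrsf1β-/- comparison 28.8% were higher as deposited and 54.6%, 55.9% and 60.1% with median-ratio, quantile and total scaling, in the treated Tnfrsf1α-/- one 50.4% and 70.8% with total scaling, and of differences in response 36.9% and 26.8%, against 52.5% and 50.2%, 50.3% and 49.2%, and 13.7% and 18.4%.

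Of the sign changes, that of Nfkbib with total scaling, 0.075 in the untreated Tnfrsf1β-/- comparison, was of a gene that had passed as deposited. With a pseudocount of 0.1 Nfkbiz was at 1.02 and 0.36 for the differences in response under the Tnfrsf1α-/- and Tnfrsf1β-/- labels. In wild type with TNFα, Nfkb1 was at -0.24, -0.34 and -0.53 with median-ratio, quantile and total scaling and Rel at -0.078 with the last; without 1 library Nfkb1 ranged from -0.32 to 0.70, Rel from -0.069 to 0.49 and Nfkbie from -0.85 to 0.16. With TNFα under the Tnfrsf1α-/- label, Nfkb2 was at -0.11 and -1.42 and Rela at -0.31 and -1.48 with quantile and total scaling. With total scaling both passed as lower (limma adjusted p = 0.0025 and 0.0012), and Nfkbib was at -0.28. Without 1 library Nfkb2 ranged from -0.39 to 0.56, Rela from -0.13 to 0.22 and Nfkbia from -1.28 to 0.65. With TNFα under the Tnfrsf1β-/- label, Bcl3 was at 0.32 with median-ratio scaling and Nfkbib at -0.45 with total scaling. For the difference in response under the Tnfrsf1α-/- label, Relb was at -0.26 and Nfkbib at -0.57 with total scaling, and without 1 library Nfkbib ranged from -0.63 to 0.73 and Nfkbiz from -1.63 to 0.38. For that under the Tnfrsf1β-/- label, Nfkbib was at 0.90 and 1.08 and Bcl3 at 1.10 and 0.67 with median-ratio and quantile scaling, and Relb at -0.61 with total scaling; without 1 library Relb ranged from -0.0040 to 0.56 and Bcl3 from -0.43 to 0.20. Rela was at -0.17 with median-ratio scaling in the untreated Tnfrsf1α-/- comparison and at 0.027 with total scaling in the treated one, where without 1 library Rel ranged from -0.045 to 1.71 and Nfkbia from -0.73 to 1.20. In the treated Tnfrsf1β-/- comparison Nfkb1 was at 0.30, 0.32 and 0.39 with median-ratio, quantile and total scaling, Rel at 0.026 and 0.042 with the first and the last, and Nfkbia at 0.11 with the last.

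The replicate numbers were not taken as pairs: same-numbered libraries deviated together, with a correlation over 0.1, in 9 of 15 pairs of groups, with a range of -0.169 to 0.244. With the replicate block, Nfkbib passed for TNFα in wild type (1.08, adjusted p = 0.040), which made 5 calls there, and the block changed no other call of a member.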
